A study of Mus musculus with 15 samples.

Results

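The genes described here build the seals and adhesive contacts between the epithelial cells of the colon: the claudins Cldn1, Cldn2, Cldn3, Cldn4, Cldn7, Cldn8 and Cldn15, occludin (Ocln), the scaffold protein zonula occludens-1 (Tjp1) and E-cadherin (Cdh1). They were taken by gene symbol, as every array probe that carried the symbol of a member, which gave 10 genes with 13 probes among 27389 gene names and 41174 probes. Of these 10 genes, 9 passed the filter on dim probes and were tested beside 21301 genes in all. Cldn1 did not pass.

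The samples were areas of mouse colon cut by laser capture from frozen sections of 8 female Swiss Webster mice, 2 in each of 4 groups, 1 area kind per mouse. Every mouse, the untreated ones included, had received azoxymethane (AOM, a colon carcinogen) at 7.4 mg/kg and then 3 cycles of 4% dextran sulfate sodium (DSS, which injures the colon lining), each of 7 days of DSS and 21 days of water. Mice were 7 weeks old when they entered the study, 9 weeks old when DSS began and 18 weeks old at death. The groups were untreated inflamed, untreated polypoid, 5-ASA inflamed and 5-ASA polypoid tissue, where treated mice received 5-aminosalicylic acid (5-ASA, an anti-inflammatory drug used in ulcerative colitis) at 75 mg/kg throughout and untreated mice received vehicle. Mice without AOM and DSS were not analysed here, so each comparison is between diseased areas. Every value is log2 of the sample over a universal mouse reference RNA on the same array, so that 0 means the same brightness as the reference, and levels are compared between groups for 1 probe and never between genes.

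Tight junctions ring the upper edge of each epithelial cell, and claudins form their strands. Sealing claudins such as Cldn1, Cldn3, Cldn4 and Cldn8 restrict the passage of ions and water between cells, whereas Cldn2 and Cldn15 form channels for small cations, and Cldn7 also sits along the lateral membrane of colonocytes. Occludin joins the strands, zonula occludens-1 ties them to the actin cytoskeleton, and E-cadherin holds neighbouring cells together at the adherens junction below.

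Arrays were of like brightness, with a median sample intensity of 149 to 257 over a median background of 41 to 63. On each array 57.4% to 90.9% of sample spots cleared background well. Mice of 1 group correlated at r of 0.872 to 0.943 over the genes tested, and mice of different groups at 0.701 to 0.948. The highest value was for replicate 1 of untreated and of 5-ASA inflamed tissue, scanned on the same day. Replicate 1 of untreated and of 5-ASA polypoid tissue, also scanned on 1 day, correlated at 0.902, beside 0.873 for the untreated polypoid pair. Untreated polypoid replicate 1 stood apart from the other polypoid mice, at 14.2 on a first principal component (48.5% of the variance) on which they lay at 35.8 to 57.9 and the inflamed mice at -50.3 to -28.5. The 8 epithelium markers averaged 2.91 to 2.98 in untreated inflamed, 2.95 to 3.15 in 5-ASA inflamed, 2.75 to 2.92 in untreated polypoid and 2.1 to 2.41 in 5-ASA polypoid tissue, above the reference in every mouse. The labels name inflamed or polypoid tissue and no cell type. In areas that hold many cells, fewer cells of a type and less RNA per cell cannot be told apart.

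Cldn3 and Cldn4 are neighbours on mouse chromosome 5, with 0 genes between them in the RefSeq annotation of GRCm38.p6, and their differences between tissues had opposite signs here, Cldn4 past the test and Cldn3 not. The 250 bases before each start site are shown for that reason, 5′ to 3′ along the gene, as RefSeq gives them for GRCm38.p6. Capitals mark matches, on either strand, to CAGGTG (an E-box bound by repressors of epithelial genes such as Snai1 and Zeb1) and to GGGCGG (a GC box bound by Sp1-type factors).
Cldn4 (chr5:134946935-134947184, minus strand): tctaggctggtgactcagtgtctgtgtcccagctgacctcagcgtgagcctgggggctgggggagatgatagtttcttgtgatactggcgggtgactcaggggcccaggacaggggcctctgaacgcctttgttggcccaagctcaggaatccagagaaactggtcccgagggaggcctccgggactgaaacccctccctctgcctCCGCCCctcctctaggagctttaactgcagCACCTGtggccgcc
Cldn3 (chr5:134985964-134986213, plus strand): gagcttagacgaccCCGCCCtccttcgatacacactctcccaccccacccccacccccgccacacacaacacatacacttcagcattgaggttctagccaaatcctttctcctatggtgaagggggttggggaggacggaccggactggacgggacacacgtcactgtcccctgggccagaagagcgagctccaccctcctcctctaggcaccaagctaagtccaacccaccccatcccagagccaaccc
The Cldn4 window held 1 CAGGTG match, 14 bases before the start, and 1 GGGCGG match, 44 bases before it. In the Cldn3 window there was no CAGGTG match and 1 GGGCGG match, 236 bases before the start. Over 32851 mouse promoter windows of the same length, 17.2% held CAGGTG and 32.7% held GGGCGG, and over the 10 windows found for 8 of the members the counts were 3 and 8. A match is a match of letters only and was not tested as a binding site.

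The first question was whether polypoid tissue differed from inflamed tissue. Cldn4 was higher in polypoid tissue and was the 1 member that passed the test. In 3 of the 4 polypoid mice Cldn8 stood far below every inflamed mouse, and in the fourth it did not. Cldn3 and Cldn15 were lower on average and Cdh1 higher, none past the threshold. For Cdh1 the arms ran opposite ways, at 1.35 in untreated and -0.58 in 5-ASA mice. The 95% intervals of Cldn2, Cldn7, Ocln and Tjp1 held 0. In all, 1 of 9 members passed an adjusted p of 0.05 (limma, Benjamini-Hochberg over all genes), where 5.94% of all genes did (3.97% higher, 1.97% lower), and 5 of 9 had an unadjusted p under 0.05, where 23.2% did. Of the 9 members, 4 were higher and 5 lower, with a median difference of -0.16 beside -0.015 over all genes. The members were chosen with earlier results of these data known, so these counts are a description only.

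Cldn4 stood at 0.28 and 0.17 in untreated inflamed tissue, 0.53 and 0.78 in 5-ASA inflamed tissue, 1.54 and 2.04 in untreated polypoid tissue and 1.75 and 2.06 in 5-ASA polypoid tissue. All 4 polypoid mice lay above all 4 inflamed mice, a separation seen in this direction for 8.37% of genes and for no other member. Polypoid exceeded inflamed tissue by 1.41 ± 0.15 (SE) on the log2 scale, 2.66-fold (95% interval 1.03 to 1.79, adjusted p = 0.011, limma, n = 4 mice per tissue). Within untreated mice the difference was 1.57 ± 0.22, with an adjusted p of 0.075 that did not pass. Within 5-ASA mice it was 1.25 ± 0.22 with an adjusted p of 0.045, which ranged from 0.032 to 0.43 over 17 alternatives and passed in 5; with 1 mouse left out it passed only without either untreated polypoid mouse. The group means fell in the order 5-ASA polypoid (1.91), untreated polypoid (1.79), 5-ASA inflamed (0.66) and untreated inflamed (0.22), and the 2 polypoid groups overlapped.

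The Cldn4 probe was dim. On the 8 arrays with the sample in Cy3, its spot read 104 and 122 in untreated inflamed, 127 and 186 in 5-ASA inflamed, 288 and 304 in untreated polypoid and 314 and 379 in 5-ASA polypoid tissue, beside 80.8 to 108 in the reference channel. On these 8 arrays the scanned brightness therefore separated the tissues without any correction. Its sample spot cleared background well on 14 of 15 arrays and its reference spot on 8. Without 5-ASA inflamed replicate 1 the difference was 1.35 with an adjusted p of 0.067, and with scan session (the calendar day in the file headers) as a block, which left 1 residual degree of freedom and 0 genes called, it was 1.76 with an adjusted p of 0.33, so the call was lost in both. The replicate 1 inflamed mice were scanned in session 1 and the replicate 1 polypoid mice in session 2, so tissue and session cannot be told apart for them. Session 3 held both tissues, but untreated inflamed replicate 2, at 0.17, was its only inflamed mouse. Its polypoid mice were 1 untreated, at 2.04, and 1 given 5-ASA, at 2.06. The difference within session 3 was 1.89 with the arms mixed, and 1.88 between the untreated mice alone.

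**Figure D1:**
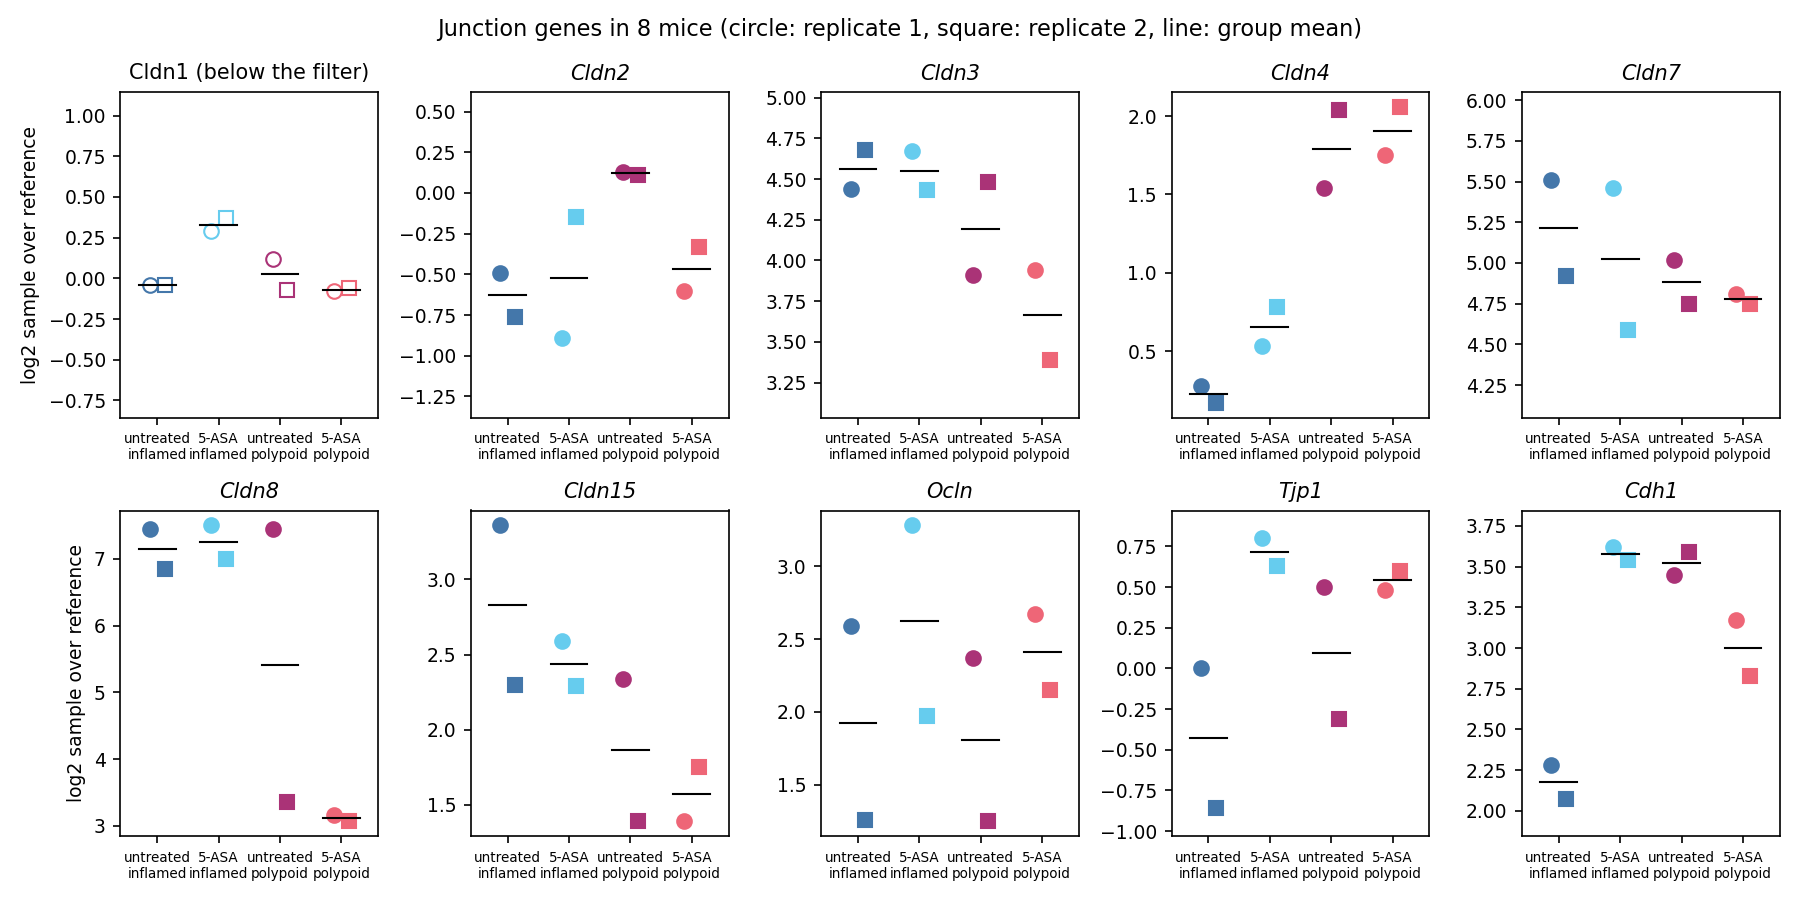
Log2 sample over reference of the 10 genes in each of 8 mice, by group (vertical axes differ between genes; circles are replicate 1, squares replicate 2, lines group means; open symbols mark Cldn1, which failed the filter and is drawn by its first probe). Cldn4 is 1.54 to 2.06 in the polypoid mice and 0.17 to 0.78 in the inflamed mice, and Cldn8 is 7.45 in untreated polypoid replicate 1 and 3.07 to 3.36 in the other polypoid mice.

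Cldn8, a sealing claudin of the distal colon, read 7.44 and 6.84 in untreated inflamed tissue, 7.5 and 6.99 in 5-ASA inflamed tissue, 7.45 and 3.36 in untreated polypoid tissue and 3.17 and 3.07 in 5-ASA polypoid tissue. Untreated polypoid replicate 1 lay within the range of the inflamed mice, and the other 3 polypoid mice lay below all of them. Scanned in Cy3, the spot read 10011 and 5971 in untreated inflamed, 11703 and 8876 in 5-ASA inflamed, 11447 and 626 in untreated polypoid and 559 and 632 in 5-ASA polypoid tissue. The mean difference of -2.93 ± 0.84 (7.63-fold lower in polypoid tissue, 95% interval -4.99 to -0.88) had an adjusted p of 0.10 and did not pass. Without untreated polypoid replicate 1 it was -3.96 (adjusted p = 0.0052), and without untreated polypoid replicate 2 it was -1.91 (adjusted p = 0.025), so that it passed when either of that pair was left out. Within untreated mice the difference was -1.74 ± 1.19 (adjusted p = 0.59). Without replicate 1 that was -3.78 (adjusted p = 0.050, under the threshold before rounding), and without replicate 2 it turned to 0.30. In 5-ASA mice, whose replicates were alike, it was -4.13 ± 1.19 (17.5-fold lower, adjusted p = 0.13), with the spread shared over all groups, and it passed when either untreated polypoid mouse was left out of that spread (adjusted p = 0.011 and 0.012).

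Some markers of surface colonocytes, the absorptive cells at the top of the crypt, were also higher in untreated polypoid replicate 1 than in replicate 2. All 6 of their genes were tested and 4 fell in polypoid tissue, Slc26a3, Aqp8, Car4 and Ceacam20, beside 1.97% of all genes. The list was chosen with earlier results of these data known, so this count is a description only. The mean of the 6 genes was 3.97 to 4.11 in untreated inflamed and 3.74 to 4.60 in 5-ASA inflamed tissue. It was 3.52 and 2.04 in untreated polypoid replicates 1 and 2, and 0.95 to 0.98 in 5-ASA polypoid tissue. Slc26a3, the chloride-bicarbonate exchanger of these cells, read 4.40 to 5.63 in the inflamed mice, 4.25 in untreated polypoid replicate 1, 0.88 in replicate 2 and 0.06 and -0.04 in the 5-ASA polypoid mice. Ceacam20 and Car1 did not part the untreated polypoid pair in that way, at 1.66 and 1.78 for Ceacam20 and 2.76 and 2.87 for Car1. The part of these cells in the Cldn8 values was not tested. The reference channel of the Cldn8 probe was well above background on 5 of 15 arrays, so the size of its ratios depends on the background correction.

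Of the remaining sealing claudins, Cldn3 read 4.44 and 4.68 in untreated inflamed, 4.67 and 4.43 in 5-ASA inflamed, 3.91 and 4.48 in untreated polypoid and 3.94 and 3.39 in 5-ASA polypoid tissue. The tissues overlapped through untreated polypoid replicate 2, and the difference of -0.62 ± 0.19 had an adjusted p of 0.12. Cldn7 read 5.51 and 4.92, 5.46 and 4.59, 5.02 and 4.75, and 4.81 and 4.75 in the same order of groups, all 4 groups overlapping with their neighbours. Its difference was -0.29 ± 0.24 (95% interval -0.86 to 0.29, adjusted p = 0.53).

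Cldn1 could not be compared with the same weight, since the sample spots of its 2 probes cleared background well on only 8 and 9 of 15 arrays. Both read highest in 5-ASA inflamed tissue, at 0.29 and 0.37 by the first probe and 0.58 and 0.74 by the second, where the other 6 mice read -0.08 to 0.12 and -0.15 to 0.16. With the filter removed, the first probe differed between tissues by -0.17 ± 0.076 (adjusted p = 0.30).

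Among the channel-forming claudins, Cldn2 read -0.49 and -0.76 in untreated inflamed, -0.89 and -0.15 in 5-ASA inflamed, 0.13 and 0.11 in untreated polypoid and -0.60 and -0.33 in 5-ASA polypoid tissue. It lay above the reference in the untreated polypoid mice only, above every other mouse, and the group means of the other 3 groups, -0.47, -0.52 and -0.63, came from overlapping ranges. Scanned in Cy3, its spot read 318 and 204 in untreated polypoid and 216 and 175 in 5-ASA polypoid tissue, so brightness before correction did not part these 2 groups. Polypoid over inflamed was 0.40 ± 0.19 in both arms (adjusted p = 0.27), 0.74 ± 0.27 in untreated mice (adjusted p = 0.34) and 0.05 ± 0.27 in 5-ASA mice (adjusted p = 0.95). Cldn15 read 3.36 and 2.30 in untreated inflamed, 2.59 and 2.29 in 5-ASA inflamed, 2.34 and 1.39 in untreated polypoid and 1.39 and 1.75 in 5-ASA polypoid tissue. The highest polypoid mouse, at 2.34, reached the lower end of the inflamed range, and the difference of -0.92 ± 0.31 had an adjusted p of 0.15.

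Ocln, a membrane protein of the strands, read 2.59 and 1.26 in untreated inflamed, 3.28 and 1.97 in 5-ASA inflamed, 2.37 and 1.25 in untreated polypoid and 2.67 and 2.15 in 5-ASA polypoid tissue. In 3 of the 4 groups the 2 mice lay further apart than the highest and lowest group means (2.63 and 1.81), and polypoid over inflamed was -0.16 ± 0.46 (95% interval -1.28 to 0.95). Its reference channel was well above background on 1 of 15 arrays. The second Ocln probe, well above background on 11 arrays in the sample channel, ranged from 0.02 to 0.32 over all mice.

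Tjp1, the scaffold beneath the strands, has 2 probes that disagreed. By the brighter it read 0.00 and -0.86 in untreated inflamed, 0.80 and 0.63 in 5-ASA inflamed, 0.50 and -0.31 in untreated polypoid and 0.48 and 0.60 in 5-ASA polypoid tissue. The other stayed between 0.35 and 0.70 in all mice, and untreated inflamed replicate 2, lowest of all by the brighter probe, was at 0.63 by it. Polypoid over inflamed was 0.18 ± 0.26 by the brighter and -0.10 ± 0.11 by the other.

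Cdh1, the adhesion receptor of the adherens junction, read 2.28 and 2.07 in untreated inflamed, 3.62 and 3.54 in 5-ASA inflamed, 3.45 and 3.59 in untreated polypoid and 3.17 and 2.83 in 5-ASA polypoid tissue. Untreated inflamed tissue was lowest, 5-ASA polypoid tissue was next, and 5-ASA inflamed and untreated polypoid tissue overlapped at the top. Over both arms polypoid exceeded inflamed tissue by 0.38 ± 0.12 (adjusted p = 0.12), a mean of arms that ran opposite ways. In untreated mice the difference was 1.35 ± 0.17 (2.54-fold higher, adjusted p = 0.066) and in 5-ASA mice -0.58 ± 0.17 (1.49-fold lower, adjusted p = 0.13).

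In untreated mice 0 of 9 members passed the test, beside 0.164% of all genes, and 3 (Cldn2, Cldn4 and Cdh1) had an unadjusted p under 0.05, beside 12.6%. These 3 were also the members whose 2 polypoid mice both lay above the 2 inflamed mice, beside 19.4% of genes. No scan session held both tissues of the 5-ASA mice, with inflamed mice in sessions 1 and 4 and polypoid mice in sessions 2 and 3. Within this arm tissue and session therefore cannot be told apart. In 5-ASA mice 1 member passed, Cldn4, beside 3.06% of genes, and 4 had an unadjusted p under 0.05, beside 19.1%. Here Cldn4 lay higher in both polypoid mice, 1 of 9 beside 26.7% of genes, and Cldn3, Cldn8, Cldn15, Tjp1 and Cdh1 lower in both, 5 of 9 beside 28.5% of genes. In the same comparison 1 of 8 epithelium and 3 of 6 surface colonocyte markers passed, all lower, with list medians of -0.80 and -3.12. Of these markers 1 of 8 and 0 of 6 lay above 0, and their part in the values of the members was not tested.

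**Figure D2:**
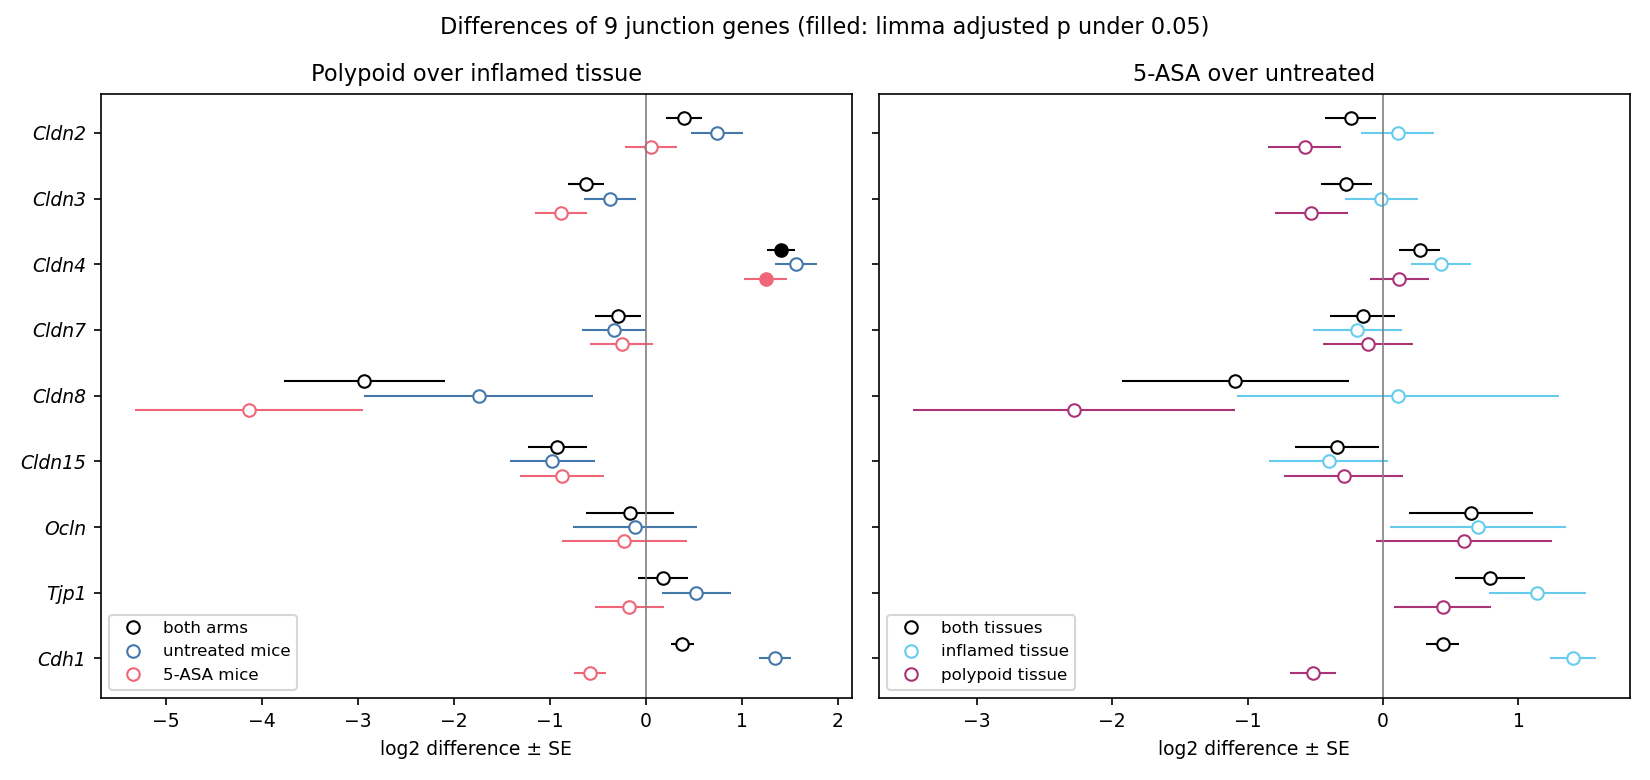
Log2 difference ± SE of the 9 members tested, for polypoid over inflamed tissue (left, over both arms and in each) and for 5-ASA over untreated (right, over both tissues and in each); filled symbols have a limma adjusted p under 0.05. Only Cldn4 is filled, at 1.41 over both arms and 1.25 in 5-ASA mice, and the Cdh1 estimates for 5-ASA lie on opposite sides of 0 in inflamed (1.40) and polypoid tissue (-0.52).

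The second question was whether 5-ASA changed these genes, which the title of the study raises. No member passed: 0 of 9 over both tissues, in inflamed tissue and in polypoid tissue, beside 0% of all genes in each (limma, adjusted p under 0.05). At an unadjusted p under 0.05 the counts were 2, 2 and 1 of 9 members, beside 6.39%, 4.38% and 7.77% of genes. With 2 mice per group these comparisons can miss changes of the sizes given by their intervals.

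Among the members, the largest 5-ASA difference relative to its error was that of Cdh1 in inflamed tissue. Both 5-ASA mice, at 3.62 and 3.54, lay above both untreated mice, at 2.28 and 2.07, a difference of 1.40 ± 0.17 or 2.65-fold (95% interval 1 to 1.81). Its unadjusted p was 0.00014 and its adjusted p 0.98 by limma, since the smallest adjusted p of any gene in that comparison was 0.98. Of the 5-ASA inflamed mice, replicate 2 had 1 array, without a dye swap. In polypoid tissue Cdh1 was lower with 5-ASA, by -0.52 ± 0.17 (adjusted p = 0.61). The scanned Cy3 brightness was 5379 and 2996 in untreated inflamed, 14840 and 10890 in 5-ASA inflamed, 15897 and 8522 in untreated polypoid and 12950 and 8954 in 5-ASA polypoid tissue. In Cy3 the 2 untreated inflamed mice were thus the dimmest before any correction. The test of the difference between the 2 tissues gave -1.92 ± 0.24 (unadjusted p = 0.00017, adjusted p = 0.80), and over 18 alternatives it ran from -2.09 to -1.65 with adjusted p from 0.30 to 1. This estimate shares the untreated inflamed mice with the tissue difference in untreated mice. Among all genes, 5.98% likewise had non-overlapping pairs that ran opposite ways in the 2 tissues.

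Within single scan sessions 5-ASA over untreated for Cdh1 was 1.34 in inflamed tissue and -0.28 and -0.76 in polypoid tissue, each from 1 mouse per group. The mean of the smooth muscle markers was highest in the same untreated inflamed mice in which Cdh1 was lowest. Myh11 and Actg2 did not follow this in untreated inflamed replicate 2. There Myh11 read 1.09, beside 1.51 and 1.73 in the 5-ASA inflamed mice, and Actg2 read 0.62, beside 0.84 in untreated polypoid replicate 2. Of 7 markers, Des cleared the filter only through untreated inflamed tissue, where it was highest, and is left out here. The other 6 averaged 2.35 to 3.41 there, 1.24 to 1.74 in 5-ASA inflamed, 0.58 to 1.07 in untreated polypoid and 0.39 to 0.90 in 5-ASA polypoid tissue, and in inflamed tissue 0 of these 6 passed for 5-ASA. The 8 epithelium markers averaged 2.91 to 2.98 in the untreated and 2.95 to 3.15 in the 5-ASA inflamed mice. In polypoid tissue they averaged 2.75 to 2.92 in the untreated and 2.10 to 2.41 in the 5-ASA mice, where 0 of 8 passed and the median difference was -0.44. The part of muscle and of epithelial content in the Cdh1 values was not tested.

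**Figure D3:**
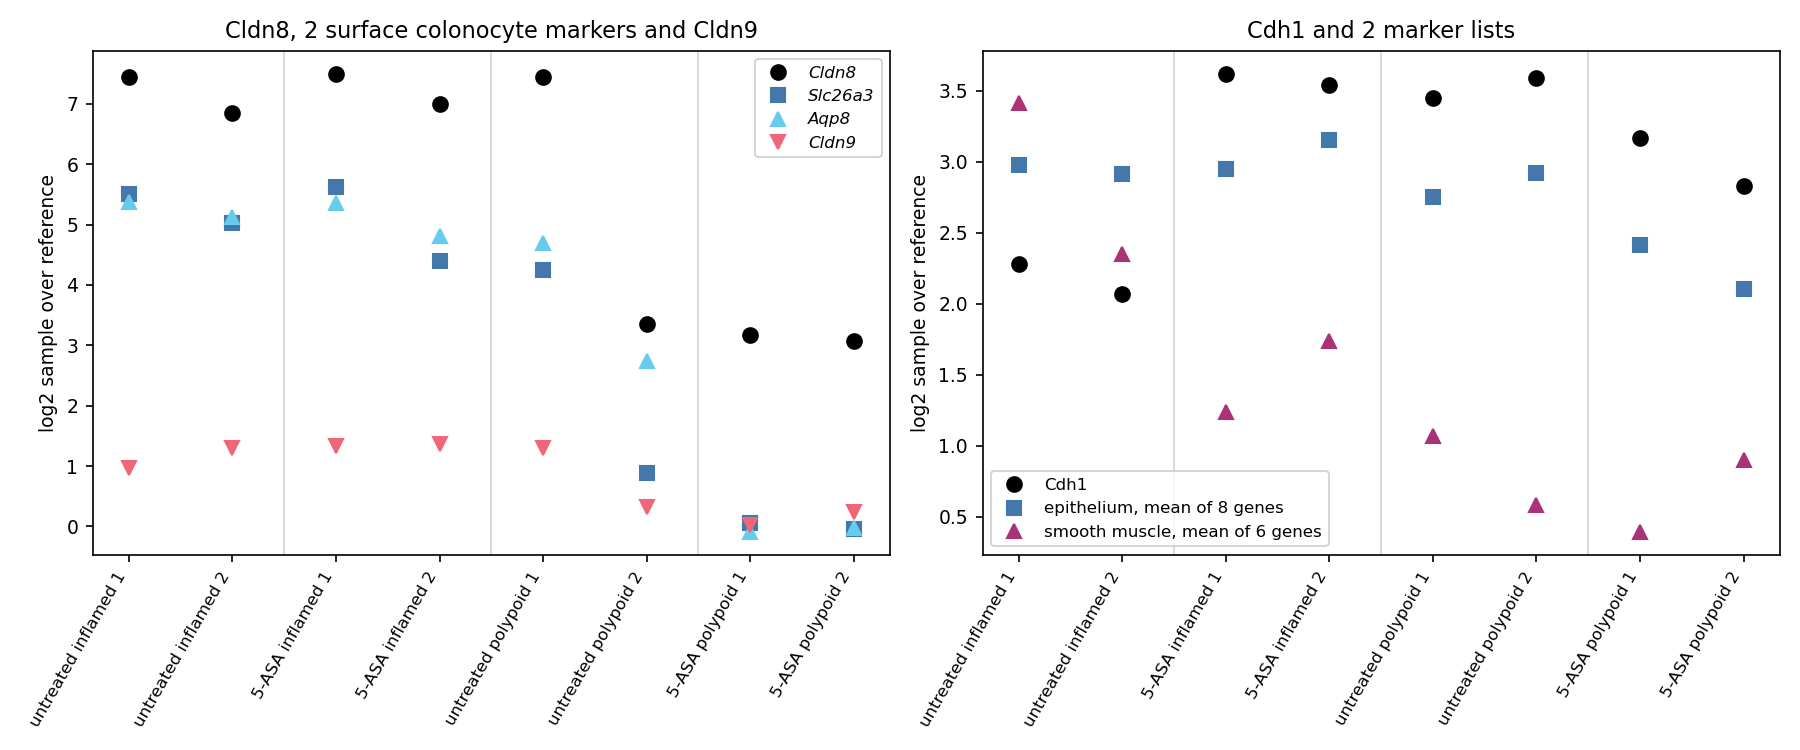
Log2 sample over reference in each of 8 mice for Cldn8, Slc26a3, Aqp8 and Cldn9 (left) and for Cdh1 beside the mean of the epithelium and smooth muscle markers (right). Cldn8, Slc26a3 and Aqp8 are high in the inflamed mice and in untreated polypoid replicate 1, and Aqp8 is at 2.74 in replicate 2. Ceacam20 and Car1, not drawn, did not part that pair in this way. Cdh1 is lowest, at 2.07 and 2.28, in the 2 untreated inflamed mice, in which the mean of 6 smooth muscle markers is 2.35 to 3.41.

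Tjp1 by its brighter probe was higher with 5-ASA in inflamed tissue, by 1.14 ± 0.36 (adjusted p = 0.98), and over both tissues by 0.79 ± 0.26 (adjusted p = 0.77), whereas by its other probe the difference over both tissues was 0.03 ± 0.11. Cldn4 was higher in both 5-ASA inflamed mice than in both untreated ones, by 0.43 ± 0.22 (adjusted p = 0.98), and differed by 0.12 ± 0.22 in polypoid tissue (95% interval -0.42 to 0.65). In polypoid tissue Cldn2, Cldn8 and Cdh1 were lower in both 5-ASA mice than in both untreated mice, 3 of 9 members beside 19.2% of genes. In the same comparison 0 of 8 epithelium markers and 0 of 6 surface colonocyte markers passed, with medians of -0.44 and -1.54, all 8 and all 6 of them below 0, and their part in the values of these 3 genes was not tested. For Cldn8 that difference was -2.28 ± 1.19 (adjusted p = 0.70), and it was -4.27 between the 2 mice of scan session 2 and -0.29 between those of session 3. For Cldn2 it was -0.58 ± 0.27 (adjusted p = 0.67). In inflamed tissue Cldn4, Tjp1 by its brighter probe and Cdh1 were higher in both 5-ASA mice, 3 of 9 beside 14.9% of genes. By its other probe Tjp1 overlapped there, at 0.50 and 0.63 in the untreated and 0.70 and 0.59 in the 5-ASA mice. Cldn3, Cldn7, Cldn15 and Ocln had overlapping treatment groups in both tissues, and over the 4 treated against the 4 untreated mice 0 of 9 members separated, beside 1.73% of genes.

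The other genes of the junctions were taken from lists of the families and complexes. These lists were chosen with earlier results of these data known, so their counts are a description only. Among other claudins, 12 of 16 were tested and 0 passed, with Cldn9 at -0.77 (adjusted p = 0.11) for polypoid over inflamed tissue in both arms. Cldn6, at 0.27, and Cldn10 cleared the filter only through the group in which each was highest, 5-ASA polypoid and untreated inflamed tissue, so their differences are a description only. Cldn9, like Cldn8, read 0.96 to 1.37 in the inflamed mice and 1.30 in untreated polypoid replicate 1, and 0.02 to 0.32 in the other 3 polypoid mice.

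Among tight junction scaffold, adhesion and polarity genes, 24 of 25 were tested, 2 rose and 1 fell, beside 3.97% and 1.97% of all genes, and the median was -0.04. Jam2, a junctional adhesion molecule best known from endothelium, rose by 1.26 ± 0.21 (adjusted p = 0.026), from -1.36 to -0.58 in the inflamed mice to 0.02 to 0.90 in the polypoid mice, while its second probe gave -0.08. Lsr, which gathers proteins at the corners where 3 cells meet, rose by 0.94 ± 0.19 (adjusted p = 0.043), from 0.74 to 1.26 to 1.53 to 2.26. Prkcz, an atypical protein kinase C of the cell polarity complex, fell by 0.93 on the log2 scale, with an SE of 0.10 (adjusted p = 0.010), from 2.25 to 2.55 down to 1.20 to 1.83, and its 2 other probes gave -1.17 and -0.36. With each of the 8 mice left out in turn, the adjusted p of Jam2 was 0.033 to 0.092 and passed without untreated inflamed replicate 1 and without 5-ASA polypoid replicate 1. That of Lsr was 0.021 to 0.17 and passed without untreated polypoid replicate 1 only, and that of Prkcz was lost only without 5-ASA inflamed replicate 1 (0.061).

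Adherens junction genes numbered 13 tested of 15, with 0 past the threshold and a median of 0.15. The nearest was Ctnnb1, β-catenin, which binds the tail of E-cadherin and carries Wnt signals, at 0.98 ± 0.22 (adjusted p = 0.059), with 0.61 and 1.07 by its 2 other probes. Its values were 0.06 and -0.87 in untreated inflamed, 0.61 and 0.21 in 5-ASA inflamed, 0.50 and 0.65 in untreated polypoid and 1.41 and 1.37 in 5-ASA polypoid tissue. Nectin1 was at -0.39 (adjusted p = 0.16).

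Desmosome genes (11 of 11 tested, median -0.02) and gap junction genes (9 of 9, median -0.04) had 0 past the threshold. Ppl and Evpl, both plakins of the desmosome, were at 0.80 (adjusted p = 0.084) and -0.56 (adjusted p = 0.095). A second Ppl probe, which failed the filter, gave -0.11, and a second Evpl probe gave -0.12. The connexins Gja4 and Gjc1 were at -0.28 and -0.34, and a second Gjc1 probe gave -0.15. Of 13 repressors of E-cadherin and epithelial transcription factors, 0 passed, and Snai3 cleared the filter only through 5-ASA polypoid tissue, where it was highest. Among them Ovol1 was at -0.89 (adjusted p = 0.13) by its brighter probe and 0.25 by the other, and Zeb1, a repressor of E-cadherin, at -0.45 (adjusted p = 0.14). For 5-ASA, over both tissues or in either, 0 genes of these 6 lists passed, and in 5-ASA mice Prkcz alone passed between tissues (-1.09, adjusted p = 0.024).

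**Figure D4:**
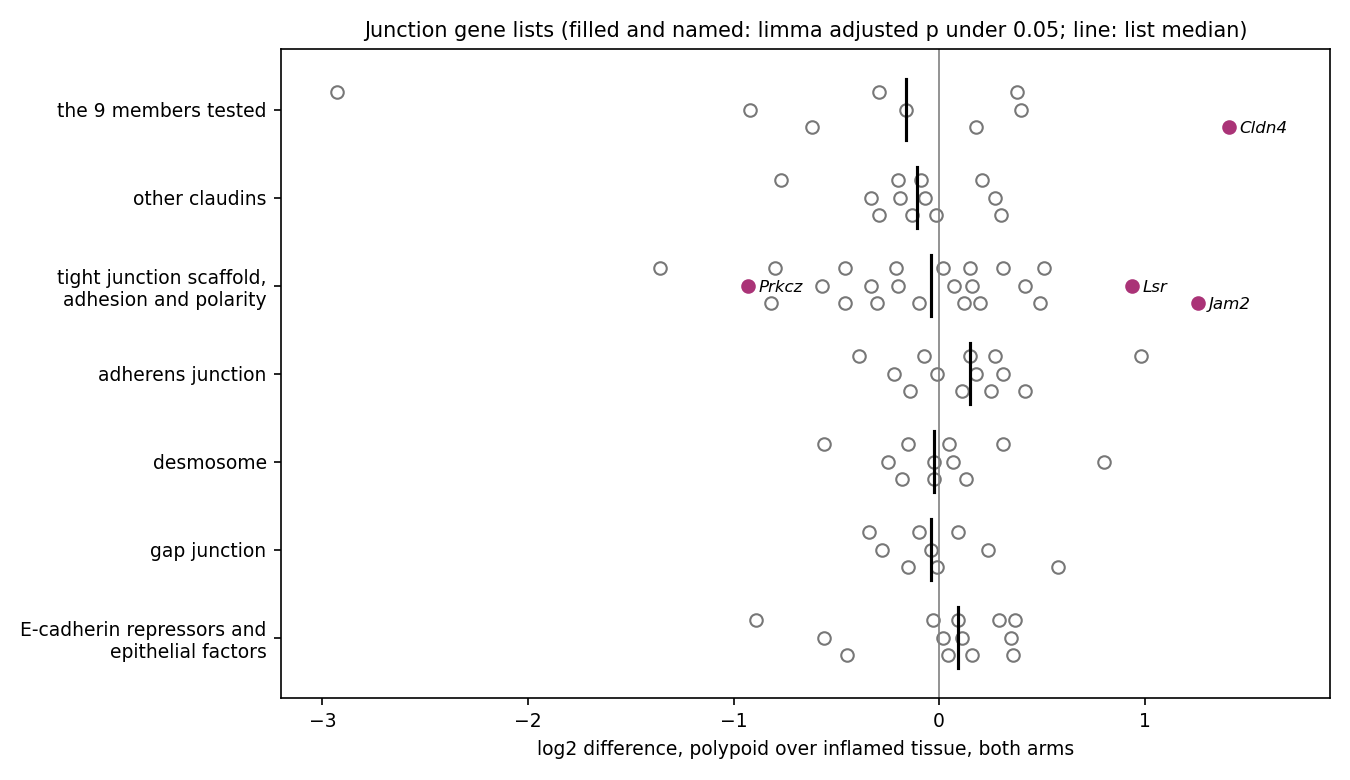
Log2 difference of polypoid over inflamed tissue in both arms for each tested gene of the members and of 6 wider junction lists; filled, named points have a limma adjusted p under 0.05 and black lines are list medians. The medians, which include Cldn6, Cldn10 and Snai3, lie between -0.16 and 0.15, and the named genes are Cldn4 (1.41), Jam2 (1.26), Lsr (0.94) and Prkcz (-0.93).

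Genes of like pattern were sought for the members with the largest difference in each direction, by the root mean square difference of centred values over the 8 mice, as a description. Nearest to Cldn4 were Gtf2h5 and Nuak1 (0.17 each), Skp1 (0.19), Ccl7 (0.20) and Gsta4 (0.21). Nearest to Cldn8 were Aqp4, a water channel, and Klk1b16 (0.37 each), Klk1b26 and Akr1c14 (0.44 each) and Nxpe5 (0.45). Aqp4 read 4.56 to 5.91 in the inflamed mice, 5.12 in untreated polypoid replicate 1 and 0.91 to 1.72 in the other polypoid mice. The Klk1b genes are near-identical copies of each other, so which of them was measured is uncertain.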

How the data were processed

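Per the file headers, the deposited scanner files hold mean spot intensity and median local background intensity for both dyes, read by Agilent Feature Extraction 9.1.1.1, with the scanner software's own processed signals, an intensity too. The value table deposited by the authors holds log2 ratios of sample over reference already turned for dye, made by a correction and normalization not given in the sources used here. Column by column it followed the present values closely (r 0.996 to 1). The deposited log10 ratios of the scanner software, red over green per the file headers, served only to find the table's direction.

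The 15 arrays carried 8 mice against a universal reference, 7 of them with a dye swap. RNA went through 2 amplification rounds, per the labels' protocols, which can skew ratios. Spots were background-corrected (normexp, offset 50, which shrinks ratios of dim probes), dyes were aligned by loess within each array, spots flagged as outliers were dropped, and a fit of animal plus dye gave 1 log2 value per mouse. Probes had to clear background well, in the sample channel, on all arrays of 1 group or more, and the brightest kept probe stood for its gene. The 2 genes lacking a value in a mouse were fitted without it. Groups were compared with limma 3.58.1 in R 4.3.3 (group means, 4 residual degrees of freedom, prior 2.14), adjusted by Benjamini-Hochberg over 21301 genes. The code was tested on simulated data. The number of mice limits the precision. The p-values rest on the spread between mice within groups, pooled over the 4 groups and shrunk towards a prior from all genes. In each group the 2 mice were scanned on different days, so differences between scan days enter that spread.

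Names came from RefSeq: 22864 probes by accession and 10230 by symbol or synonym, while 8080 kept the array's name. Replicate numbers were not taken to pair the mice. Scan days in the headers gave 4 sessions.

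Text names all 10 members, list genes past the threshold (up to 4 each way, otherwise the 2 smallest p), and the 5 nearest patterns for 2 members. Members and lists were chosen with earlier results of these data known. Alternatives were other backgrounds, filters, scalings, probes, dye handling, the deposited table, each mouse left out, the replicate block and the scan session; those for Cldn4, Cldn8 and Cdh1 in single arms were added after seeing the data.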

Additional observations from a re-analysis of the deposited data

Results flagged for a closer look

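Cldn8 in the 4 polypoid mice was 7.45 in untreated polypoid replicate 1 and 3.36 or below in the others, a gap that took 0.934 of the range. Among the 4 untreated mice the low value of untreated polypoid replicate 2, 3.36, stood apart from the next, 6.84, by 0.853 of the range. Tjp1 by its brighter probe was -0.31 in untreated polypoid replicate 2, apart from the other polypoid mice at 0.48 to 0.60 by 0.871 of the range, and by its second probe that mouse was at 0.35. Single values this far out appear by chance in about 1 in 20 groups of 4 independent values of 1 kind. Here 36 groups were examined, 3 of which held one. These groups shared the same 8 mice and pooled tissues or arms, so the 3 cannot be set against that rate. The 5-ASA difference of Cdh1 ran opposite ways in inflamed and polypoid tissue, with a difference between them of -1.92 (adjusted p = 0.80, limma).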

How the results depend on the processing

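Cldn4 kept its direction over both arms in 17 alternatives (1.24 to 2.13) and passed in 15, the exceptions being the fit with scan session as a block (1.76, adjusted p = 0.33) and that without 5-ASA inflamed replicate 1 (1.35). It read 1.89 within scan session 3, against a single inflamed mouse and with polypoid mice of both arms. It could not pass the filter for all 15 arrays, which left 0 members called. The session block left 1 residual degree of freedom and called 0 members and 0 genes (3055 genes at an unadjusted p under 0.05). In 5-ASA mice the count of members called went from 1 to 0 with processed signals, an offset of 10, the deposited table, no filter, the filter for all 15 arrays, scale normalization and the session block. Leaving out 1 mouse moved the members called to 0 to 2 over both arms, 0 to 1 in untreated mice and 0 to 2 in 5-ASA mice, and the genes called to 127 to 1326: 127 without 5-ASA inflamed replicate 1, 462 without replicate 2, 365 and 377 without 5-ASA polypoid replicates 1 and 2, 687 and 768 without replicate 2 of the untreated polypoid and inflamed mice. Cldn4 ranged from 1.29 to 1.54 and Cldn8 from -3.96 to -1.91 in these fits. The causes were not tested.

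Directions that turned were all of uncalled differences. For polypoid over inflamed tissue, Ocln (-0.49 to 0.17 with each mouse left out) turned to 0.061 with processed signals, 0.042 with scale normalization, 0.094 with the session block, 0.17 and 0.16 without replicate 1 of the untreated and the 5-ASA inflamed mice and 0.12 without untreated polypoid replicate 2. Cldn7 turned to 0.27 with scale normalization, and Tjp1 (-0.039 to 0.39 with each mouse left out) to -0.10 by its other probe, and also without untreated inflamed replicate 2 (-0.039) or untreated polypoid replicate 1 (-0.027). Cldn8 in untreated mice (-3.78 to 0.30) turned to 0.30 without untreated polypoid replicate 2. For 5-ASA, Ocln turned to -0.27 with processed signals and -0.057 by its other probe, and Cldn7 (-0.38 to 0.071 with each mouse left out) to 0.14 with scale normalization, 0.0029 without untreated inflamed replicate 1 and 0.071 without 5-ASA inflamed replicate 2.

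Deviations of same-numbered mice correlated at r of 0.0343 to 0.363, all above 0 but not all above 0.1, the bar set for pairing; every replicate 1 was scanned in session 1 or 2 and every replicate 2 in session 3 or 4, so number and scan day go together. With the replicate block 1788 genes were called in place of 1265 (17 in place of 35 in untreated mice and 1088 in place of 651 in 5-ASA mice), 1 member was called over both arms, and no other call on a member changed. Dim reference spots (Cldn4, Cldn8, Ocln) limit the size of ratios.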

Other observations

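Both genes of this paragraph were singled out after their values were seen. Elf3, an epithelial transcription factor in the list of E-cadherin repressors and epithelial factors, read 3.48 and 3.11 in untreated inflamed, 4.19 and 3.92 in 5-ASA inflamed, 4.27 and 4.17 in untreated polypoid and 3.73 and 3.68 in 5-ASA polypoid tissue, with untreated inflamed tissue lowest and 5-ASA polypoid tissue next, as for Cdh1. Its 5-ASA difference was 0.76 ± 0.18 in inflamed and -0.52 ± 0.18 in polypoid tissue, and the test of the difference between them, -1.28 ± 0.25, had an adjusted p of 0.80 (limma). Cdx1, a homeobox factor of intestinal epithelium and the 1 of 8 epithelium markers that passed, fell by 1.14 on the log2 scale in polypoid tissue (adjusted p = 0.017), from 2.35 to 3.02 in the inflamed mice to 0.81 to 2.14 in the polypoid mice.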
